A study of Mus musculus with 8 samples.

Results

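The hemoglobin chains and 2 further genes of the red cell lineage were described in the cortex of newborn mice: the later globins Hba-a1, Hba-a2, Hbb-b1 and Hbb-b2, the embryonic globins Hba-x, Hbb-bh1 and Hbb-y, the erythroid heme synthesis gene Alas2 and the red cell anion exchanger gene Slc4a1. They were found by the gene name the array files give to each probe, which gave 10 probes of 55655 for the 9 genes (of 34787 gene names on the array), with 2 probes for Hbb-y and 1 for each other gene. The study compared 4 control pups with 4 pups whose pregnant mothers were anesthetised and had their uterine arteries clipped shut for 14 min at E16.5 (embryonic day), a procedure meant to make the embryonic brain ischemic. All 8 pups were male and of strain C57BL/6NCr, an inbred line, and total RNA of the cortex at postnatal day 1.5 (50 ng a sample) was labelled with Cy3 and hybridised to 1 one-colour Agilent array per pup. Whether control mothers had surgery without clips and which pups shared a mother are not given in the sources used here. Nor is it given whether the cortex was flushed free of blood. The p-values below measure the spread between these pups. If pups of one group shared a mother, a litter effect would be part of the group difference and not of that spread.

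Hemoglobin of the red cell is a tetramer of a pair of alpha-type and a pair of beta-type chains, each holding a heme group that binds oxygen. Primitive red cells, made in the yolk sac, carry among their chains the embryonic zeta (Hba-x), beta-H1 (Hbb-bh1) and epsilon-y (Hbb-y). Definitive red cells from the fetal liver and later the bone marrow carry the alpha chains (Hba-a1, Hba-a2) and the adult beta chains. Alas2 makes the first, rate-limiting step of heme synthesis in erythroid cells, and Slc4a1 (band 3) exchanges chloride for bicarbonate across the red cell membrane and anchors the membrane skeleton. Mature red cells of mammals lose their nucleus, and globin RNA persists in young red cells (reticulocytes), which circulate in the vessels of every organ.

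The array's gene names need care for the globins. Hbb-b1 and Hbb-b2 are the names of the major and minor beta chains of the diffuse haplotype of the beta globin locus, whereas C57BL/6 mice carry the single haplotype with Hbb-bs and Hbb-bt. Through its accession, the Hbb-b1 probe (mm9, chr7:110961105-110961164, minus strand) belongs to the gene that RefSeq now calls Hbb-bt. The Hbb-b2 probe has no position in the files' mm9 annotation, and which beta chain transcript it reads in this strain is not settled. The Hba-a1 probe (chr11:32183955-32184014, plus strand) and the Hba-a2 probe (chr11:32197245-32197304, plus strand) each carry an accession that RefSeq now gives to both alpha genes, so the 2 alpha genes cannot be told apart. A further probe, named Beta-s in the files (chr7:110976379-110976438, minus strand), belongs to Hbb-bs: its first 46 bases matched the start of the Hbb-bs transcript with 0 mismatches, and 45 bases matched that of Hbb-bt with 7 mismatches. It is not among the 9 genes by name and is given beside them. The embryonic probes lie at chr11:32177668-32177727 for Hba-x, chr7:110990209-110990268 for Hbb-bh1, and chr7:111000268-111000327 and chr7:111000448-111000507 for Hbb-y (probes 1 and 2 in what follows). The Alas2 probe lies at chrX:147004993-147005052 and the Slc4a1 probe at chr11:102210256-102210315. Exons and UTRs around the probes were not analysed here.

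Every measurement below is the signal of a 60-base probe. The following 4 probes, 2 of the later and 2 of the embryonic globins, show how different the letters are that separate bright from dim genes here; capitals mark in each the longest run that it shares with any of the other three.
Hba-a1: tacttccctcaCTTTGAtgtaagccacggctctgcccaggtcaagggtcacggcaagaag
Hbb-b2: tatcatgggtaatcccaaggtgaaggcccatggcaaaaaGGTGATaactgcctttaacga
Hba-x: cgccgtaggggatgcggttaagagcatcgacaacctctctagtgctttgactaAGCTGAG
Hbb-y, probe 2: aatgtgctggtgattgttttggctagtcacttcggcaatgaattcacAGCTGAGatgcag
Among the 20 pairs of a later globin probe (Beta-s included) with an embryonic one, the longest shared run was 8 bases of the 60. Among the later globin probes it was 7 bases.

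The promoters are given as a description. Whether they have a part in how the genes below move together from array to array was not tested. The 150 bases before the start site, from RefSeq on GRCm38.p6, were at hand for Hba-a1, Hba-a2, Hba-x, Hbb-bt, Hbb-bs, Hbb-y and Alas2, and 6 of these 7 are printed, that of Hba-a2 being the same as that of Hba-a1 in 147 of 147 aligned bases. Capitals mark matches, on either strand, to the letters CACCC (the box bound by Klf1-type factors), to CCAAT (the box known by these letters), to AGATAA as well as TGATAA (sites for factors such as Gata1), and to ATATAA as well as CATAAAA (boxes near the start site).
Hba-a1 (chr11:32283522-32283671, plus strand): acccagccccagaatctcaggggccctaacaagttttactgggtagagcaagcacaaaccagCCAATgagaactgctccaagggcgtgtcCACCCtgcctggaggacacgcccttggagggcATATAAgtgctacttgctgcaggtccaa
Hbb-bs (chr7:103827929-103828078, minus strand): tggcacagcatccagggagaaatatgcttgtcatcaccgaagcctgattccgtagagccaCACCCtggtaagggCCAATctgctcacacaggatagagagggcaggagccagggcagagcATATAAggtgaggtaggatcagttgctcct
Hbb-bt (chr7:103813924-103814073, minus strand): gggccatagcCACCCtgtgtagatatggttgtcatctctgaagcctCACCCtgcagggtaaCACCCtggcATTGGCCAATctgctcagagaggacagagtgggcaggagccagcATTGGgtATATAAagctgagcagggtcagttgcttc
Hba-x (chr11:32276450-32276599, plus strand): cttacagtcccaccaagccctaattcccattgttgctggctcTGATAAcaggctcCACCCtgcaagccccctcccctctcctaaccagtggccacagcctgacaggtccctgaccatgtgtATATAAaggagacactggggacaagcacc
Hbb-y (chr7:103853208-103853357, minus strand): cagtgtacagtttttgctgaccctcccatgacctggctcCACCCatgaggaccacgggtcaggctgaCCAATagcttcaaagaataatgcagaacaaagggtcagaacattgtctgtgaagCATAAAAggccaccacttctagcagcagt
Alas2 (chrX:150547267-150547416, plus strand): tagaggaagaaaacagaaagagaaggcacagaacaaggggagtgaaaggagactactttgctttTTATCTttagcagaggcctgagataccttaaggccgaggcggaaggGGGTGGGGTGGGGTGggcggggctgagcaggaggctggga
CACCC was found at least once in all 7 windows and in 37.4% of the 32851 promoter windows of the same length. CCAAT was found in the alpha, Hbb-bs, Hbb-bt and Hbb-y windows and in 24.5% of all windows. ATATAA stood in the alpha, Hbb-bs, Hbb-bt and Hba-x windows (5.35% of all), CATAAAA in that of Hbb-y (2.23% of all), TGATAA in that of Hba-x (4.45% of all) and AGATAA in that of Alas2 (5.65% of all). In Hbb-bt, 2 of its 3 CCAAT matches lie side by side on opposite strands. Hbb-bt and Hbb-bs had the same base at 71.1% of 149 aligned positions, and Hbb-y and Hbb-bs at 34.3% of 134. Each match is a description of letters, and the array data hold no measure of binding.

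The later globins were bright on every array, and the embryonic ones were at background. The raw mean signal of the later globin probes lay between 1711 and 92001, in arbitrary scanner units, and 0 spots were saturated. Hba-a2, one of the 2 alpha chain genes, gave raw signals of 54241, 66572, 92001 and 91868 on control arrays 1 to 4 and of 50812, 70082, 56514 and 46601 on ischemia arrays 1 to 4. The 4 embryonic probes gave between 41.9 and 68.0, where the negative control spots of the 8 arrays averaged between 41.8 and 45.7. Of the 32 embryonic measurements (4 probes on 8 arrays), 0 were well above background in the scanner software's sense. Since a signal also depends on the probe, these values say which probes are measured and do not rank one gene's RNA against another's.

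Among the embryonic probes, a weaker flag of the software, a signal positive and significant against the local background, was set in 8 of the 32 measurements. The Hbb-bh1 probe held 5 of these, on 2 control and 3 ischemia arrays, with raw signals of 57.1, 46.9, 59.0 and 58.7 in control and 52.6, 59.4, 62.7 and 67.7 in ischemia. These ranges overlap. Probe 1 of Hbb-y held the other 3, all on ischemia arrays, with 55.3, 51.7, 52.3 and 47.7 in control and 66.1, 51.6, 68.0 and 65.5 in ischemia. Thus 3 of the 4 ischemia arrays stood above the controls with that probe, and ischemia 2 did not. Probe 2 of Hbb-y gave 43.3 to 55.4 in control and 49.9 to 57.7 in ischemia with 0 such flags, so the Hbb-y probes differ, and Hba-x gave 43.6 to 54.1 and 41.9 to 55.1 with 0 flags. In the remaining 24 measurements the deposited processed signal was a substitute value set by the software. For these reasons no fold change and no test is given for the embryonic globins, and none for the ratio of embryonic to later globin levels.

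**Figure D1:**
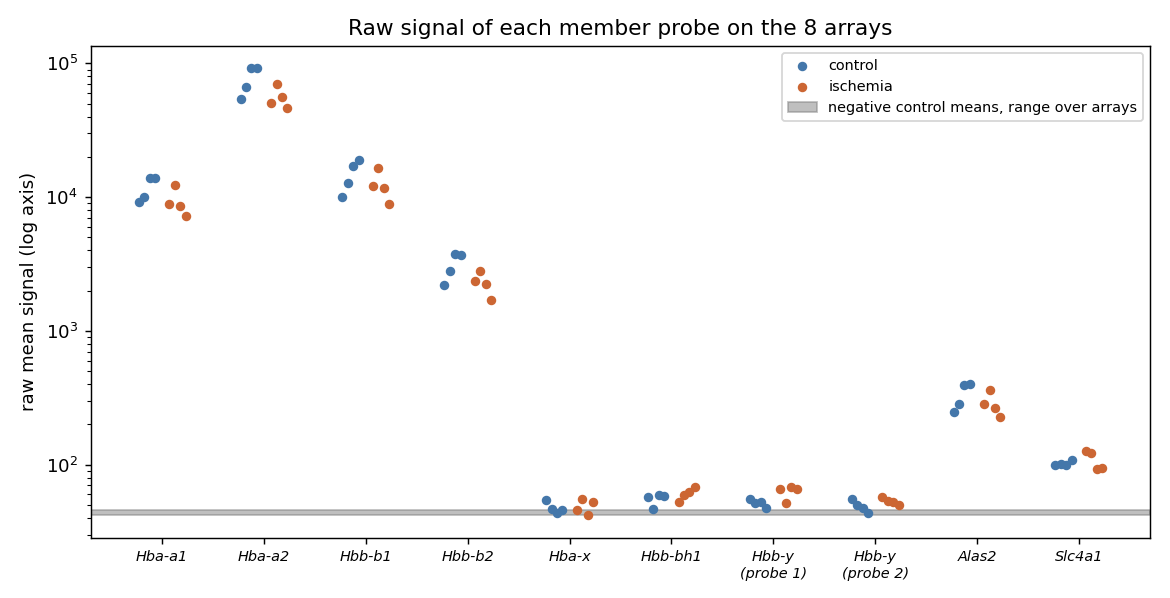
Raw mean signal (arbitrary units, log axis) of each of the 10 probes on 4 control (blue) and 4 ischemia (orange) arrays, with the range of the negative control means in grey. The 4 later globin probes lie at 1711 or above and the 4 embryonic probes at 68.0 or below, beside the negative controls.

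For the comparison of the groups, each probe's log2 processed signal was set against the 75th percentile of its array, and a probe was tested where at least 4 of the 8 arrays had it well above background. Of the 10 probes, 6 passed: those of the later globins, Alas2 and Slc4a1, each well above background on all 8 arrays. The 6 had lower means in the ischemia group, by 0.082 to 0.57 on the log2 scale, and none of the differences passed the test across all probes. The median of the 6 differences was -0.43, where that of all 27131 tested probes was -0.023. Of all tested probes, 56.7% were lower in mean. A difference of -0.4 or below was seen for 3 of the 6 and for 3.09% of all tested probes. With limma, 0 of the 6 and 0 of all probes (0%) passed an adjusted p of 0.05 in either direction. At an unadjusted p under 0.05, 3 of the 6 were lower and 0 higher, where 7.06% of all tested probes were lower and 3.05% higher. The 3 were the probes of Hba-a1, Hba-a2 and Hbb-b2. The 6 are not independent, since they come from the same arrays and vary together, as shown further on.

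Hba-a2 stood at 7.34, 7.80, 8.22 and 7.92 on control arrays 1 to 4 and at 7.23, 7.66, 7.30 and 6.94 on ischemia arrays 1 to 4 (log2 levels relative to the 75th percentile). Of the ischemia arrays, 3 lay below every control, and ischemia 2 lay within the control range. The difference was -0.54 (SE 0.21, 95% interval -1.01 to -0.06, limma unadjusted p = 0.0303, adjusted p = 0.444), which corresponds to a signal 31.0% lower.

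Hba-a1, whose probe reads the same pair of genes, stood at 4.83, 5.13, 5.55 and 5.23 in control and at 4.77, 5.18, 4.59 and 4.26 in ischemia. Again 3 ischemia arrays lay below every control, ischemia 1 only just. It differed by -0.48 (SE 0.21, 95% interval -0.97 to -0.0018, limma unadjusted p = 0.0493, adjusted p = 0.493), or 28.5% lower.

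Among the probes named for beta chains, that of Hbb-b2, whose transcript in this strain is not settled, stood at 2.76, 3.32, 3.71 and 3.38 in control and at 2.84, 3.08, 2.72 and 2.26 in ischemia. Here ischemia 3 and 4 lay below every control, and all ischemia arrays lay below the control mean of 3.29. It differed by -0.57 (SE 0.23, 95% interval -1.09 to -0.05, limma unadjusted p = 0.0357, adjusted p = 0.456), or 32.5% lower.

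Hbb-b1, the probe of Hbb-bt, stood at 4.99, 5.54, 5.86 and 5.75 in control and at 5.26, 5.64, 5.08 and 4.63 in ischemia. Only ischemia 4 lay below every control, and ischemia 2 lay above the control mean of 5.54. Its difference was -0.38 (SE 0.25, 95% interval -0.95 to 0.18, limma adjusted p = 0.654).

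Beta-s, the probe of Hbb-bs, stood at 1.72, 2.40, 2.82 and 2.40 in control and at 1.83, 2.13, 1.92 and 1.43 in ischemia. Ischemia 4 was again the lowest and control 3 the highest of the 8. It differed by -0.51 (SE 0.24, 95% interval -1.05 to 0.04, limma adjusted p = 0.520).

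Alas2 showed the order of the globins at a lower signal, with -0.87, -0.38, 0.12 and -0.17 in control and -0.59, -0.21, -0.77 and -1.12 in ischemia. Its groups overlapped except for ischemia 4, and its difference was -0.35 (SE 0.25, 95% interval -0.91 to 0.21, limma adjusted p = 0.690).

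Slc4a1, the band 3 gene, went its own way, with -2.81, -2.49, -2.64 and -2.73 in control and -2.27, -2.34, -3.20 and -3.19 in ischemia. Ischemia 1 and 2 lay above every control and ischemia 3 and 4 below every control, so the SD was 0.14 in control and 0.52 in ischemia (n = 4 each). Its difference of -0.082 (SE 0.23, 95% interval -0.62 to 0.45, limma adjusted p = 0.938) turned to 0.069 without ischemia 3, to 0.065 without ischemia 4 and to 0.055 with no scaling between arrays. Its raw signals of 92.7 to 126 made it the dimmest of the 6.

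**Figure D2:**
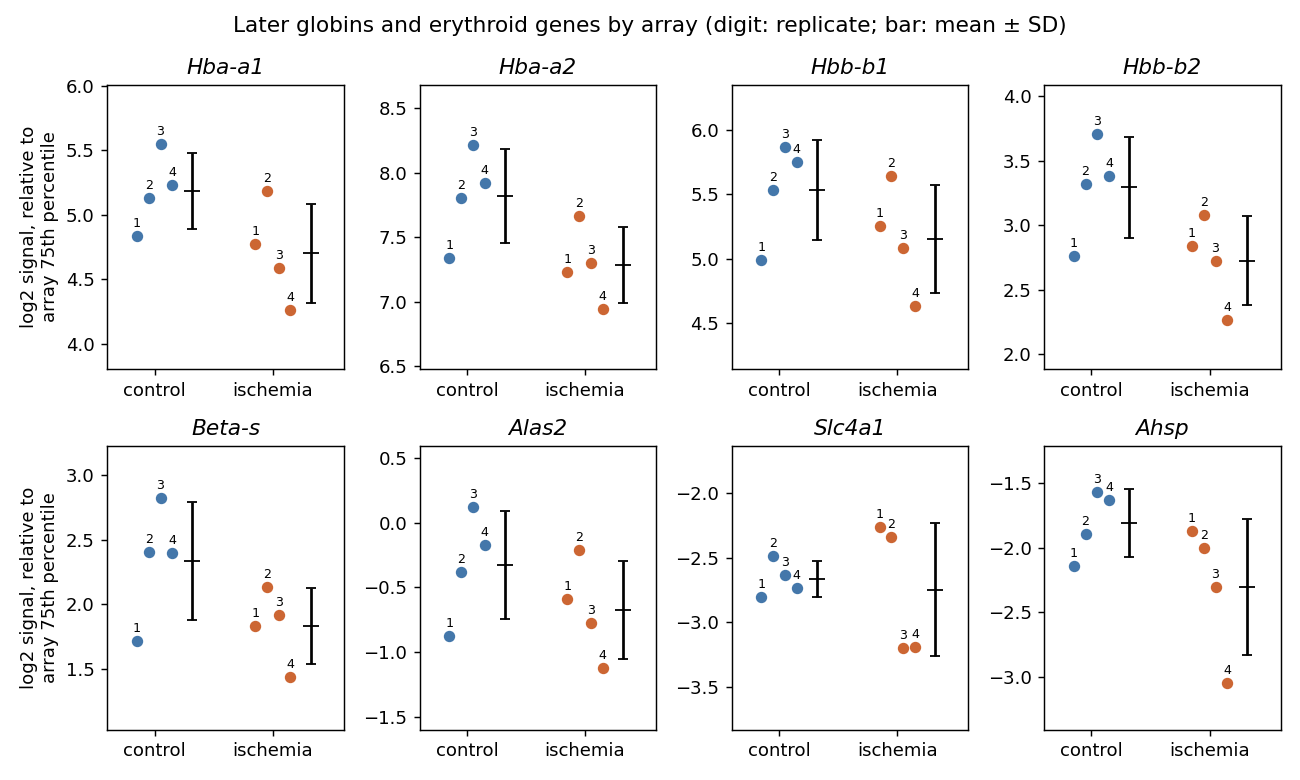
Log2 signal relative to the array's 75th percentile, for the 6 tested members, Beta-s and Ahsp, with 1 point per array (digit, replicate), 4 control (blue) and 4 ischemia (orange) arrays, and group mean ± SD in black. Every panel spans the same number of log2 units, and in none are the groups apart: for Hba-a2 ischemia 2, at 7.66, lies above control 1, at 7.34.

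In 0 of the 6 tested members did every ischemia array lie below every control, which held for 4.05% of all tested probes, and in 0 did every ischemia array lie above (2.18% of all). In cortex RNA, fewer cells of a type and less RNA per cell cannot be told apart, which holds for red cells and globin RNA throughout. The count of 3 members at an unadjusted p under 0.05 was 0 without control 2, 3 or 4, without ischemia 1, 3 or 4, with no scaling and with array weights; it was 1 with a trended and robust variance, 2 with quantile normalization or with no filter on dim probes, and 5 without control 1. Leaving out ischemia 4 moved Hbb-b1 to -0.21 and Alas2 to -0.20, and leaving out control 3 moved Alas2 to -0.20. Without control 1, Alas2 differed by -0.53. The median of the 6 differences stayed between -0.60 and -0.27 when any 1 array was left out. On the slide, all control arrays lay in one row and all ischemia arrays in the other, so slide row and group cannot be told apart.

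**Figure D3:**
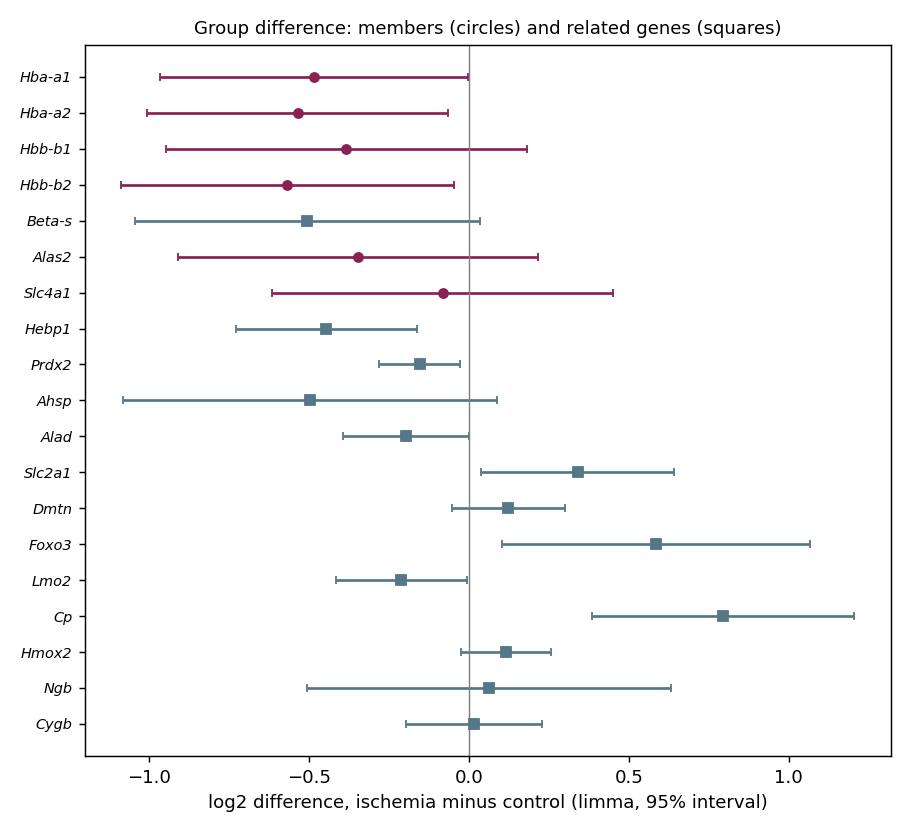
Log2 difference of ischemia minus control with limma's 95% interval (4 arrays a group) for the 6 tested members (circles) and related genes (squares). The intervals of Hba-a1, Hba-a2 and Hbb-b2 lie below 0, that of Slc4a1 spans -0.62 to 0.45, and none passed the adjusted threshold.

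The later globins ranked the arrays in nearly the same way. Control 3 was the highest of the 8 arrays in 4 of the 4 later globin probes and ischemia 4 the lowest in 4 of the 4. Within the groups, control 1 was the lowest control and ischemia 2 the highest ischemia array in 4 of the 4. The mean of the 4 probes was 5.46 ± 0.36 (SD, n = 4) in control, from 4.98 to 5.83, and 4.97 ± 0.36 (SD, n = 4) in ischemia, from 4.53 to 5.39. The distance between control 1 and control 3 was therefore larger than the difference of -0.49 between the group means.

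The spread between pups of one group was large for these genes. The pooled within-group SD was 0.33 for Hba-a2, 0.34 for Hba-a1, 0.37 for Hbb-b2, 0.38 for Slc4a1 and 0.40 for Hbb-b1 and Alas2. The median over all tested probes was 0.14, and the 6 members fell between the 86.5th and 91.4th percentile. Within an array, in contrast, the globins kept their distances. The pooled SD of the difference between 2 probes on the same array was between 0.07 and 0.13 for every pair among the 4 later globins and Alas2, and between 0.29 and 0.37 for every pair with Slc4a1.

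**Figure D4:**
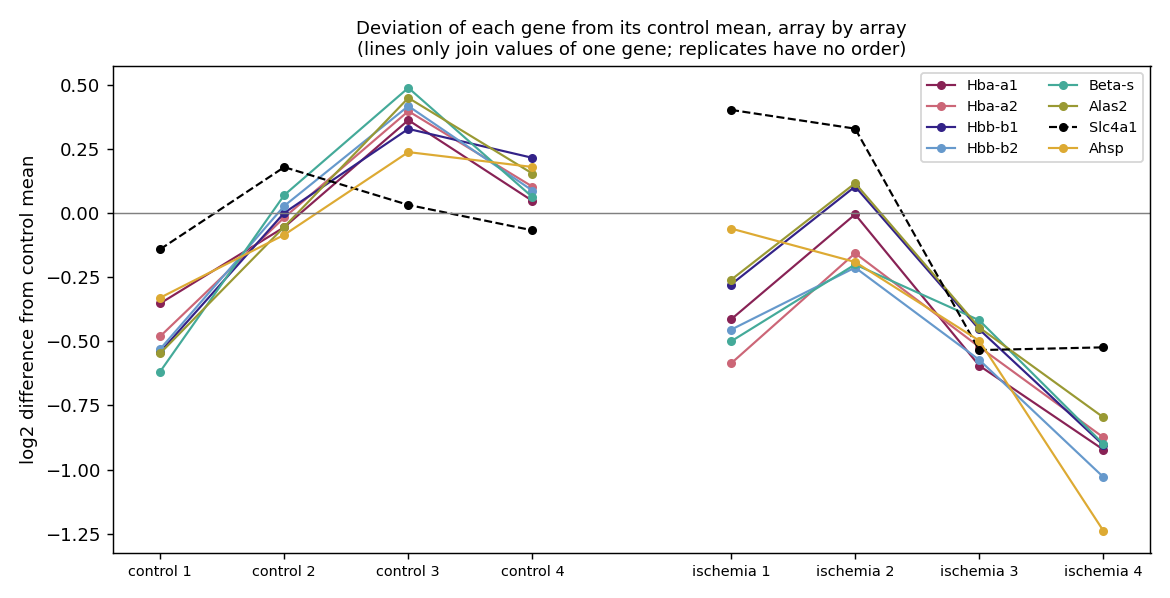
Log2 difference of each gene from its own control mean on each of the 8 arrays, for the 4 later globins, Beta-s, Alas2, Ahsp and Slc4a1 (dashed). The later globins, Beta-s and Alas2 run close together, with control 3 highest and ischemia 4 lowest. Slc4a1 departs from them on arrays of both groups, such as control 3 (0.03) and ischemia 1 (0.40).

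Small shifts in these distances were seen between the groups, given with no test, for 15 pairs of the 6 probes. In 3 of the 15 the groups did not overlap, all of them pairs of a globin with Alas2. These share the same Alas2 probe, and the Hba-a1 and Hba-a2 probes read the same genes, so they are not separate observations. How often the groups do not overlap over all pairs of tested probes was not computed, so the count is a description only. The largest shifts were in the 5 pairs with Slc4a1, from -0.26 for Alas2 above Slc4a1 to -0.49 for Hbb-b2 above Slc4a1, and in all 5 the groups overlapped. The distance of Hbb-b2 above Alas2 was 3.55 to 3.70 in control and 3.29 to 3.49 in ischemia, without overlap, a change of -0.22. That of Hba-a2 above Alas2 was 8.09 to 8.21 in control and 7.82 to 8.07 in ischemia, a change of -0.19, and that of Hba-a1 above Alas2 changed by -0.14, both without overlap. For Hbb-b1 above Alas2 the change was -0.037, with overlap. The change was smallest for Hbb-b1, the probe of Hbb-bt. Hbb-b1 above Hbb-b2 was 2.24 ± 0.09 in control and 2.43 ± 0.09 in ischemia (SD, n = 4 each), and the groups met between 2.36 and 2.37.

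To see which genes followed the globins from pup to pup, deviations from the group means were correlated with those of the mean later globin over the 8 arrays, for 14415 genes, as a description. All points share the same arrays and scaling, and the 4 later globins are part of the reference. Alas2, which is not part of it, had the highest Pearson r, 0.996 (Spearman's rho 1, r 0.992 without control 1 and ischemia 4, the arrays farthest from the median). Slc4a1 had r 0.60 (rho 0.64), which was 0.39 without those arrays. The 5 genes outside the members with the highest r were Beta-s (0.955, and 0.856 without those arrays), Cdkn2aipnl (0.954), Stard10 (0.946), Fgf1 (0.939) and Myo16 (0.936), the last of which had r 0.763 without those arrays. Of these 5 genes, Beta-s differed between the groups by -0.51 and the others by between -0.12 and 0.10. With 8 arrays and so many genes, high values of r are found among unrelated genes too.

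The other genes of the red cell program were close to all probes in their medians. With no scaling the median of all probes was 0.12 in place of -0.023, so how many genes of a list are higher or lower in mean depends on the scaling. Of the 16 genes of heme synthesis and mitochondrial import other than Alas2, all 16 were measured, 8 higher and 8 lower in mean, with 0 past the adjusted threshold, 1 higher and 0 lower at an unadjusted p under 0.05, and a median of -0.0056. Alad, the enzyme after the Alas step, differed by -0.20 (limma adjusted p = 0.498).

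Genes of the red cell membrane and its skeleton were measured in 9 of 18 cases, 6 higher and 3 lower, with 0 past the threshold, 1 higher and 0 lower at an unadjusted p under 0.05, and a median of 0.023. The glucose transporter gene Slc2a1, which brain endothelium also expresses, differed by 0.34 (limma adjusted p = 0.449) and Dmtn (dematin) by 0.12. Among the red cell genes that did not pass the filter were Rhag, Rhd, Kel, Epb42, Ank1, Icam4 and Tmod1.

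Among erythroid transcription factors, 9 of 13 were measured, 4 higher and 5 lower, with 0 past the threshold, 1 higher and 1 lower at an unadjusted p under 0.05, and a median of -0.037. The master regulators Gata1 and Klf1, and Gfi1b and Nfe2, did not pass the filter. Foxo3, measured on 3 of 4 control and 4 of 4 ischemia arrays, differed by 0.59 (limma adjusted p = 0.424) and Lmo2 by -0.21 (limma adjusted p = 0.485); many of the measured factors also act in other cells.

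Other erythroid genes were measured in 20 of 28 cases, 8 higher and 12 lower, with 0 past the threshold, 0 higher and 3 lower at an unadjusted p under 0.05 (7.06% of all tested probes were lower by that measure), and a median of -0.031. The heme-binding protein gene Hebp1 differed by -0.45 (limma adjusted p = 0.333) and the peroxiredoxin gene Prdx2, abundant in red cells and neurons, by -0.15 (limma adjusted p = 0.425), with every ischemia array below every control. Ahsp, whose protein binds free alpha chains and keeps them stable, is named after its values were seen. It stood at -2.14, -1.89, -1.57 and -1.63 in control and at -1.87, -2.00, -2.31 and -3.05 in ischemia. Ischemia 3 and 4 lay below every control, and it differed by -0.50 (SE 0.25, limma adjusted p = 0.558).

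Globins of other tissues and genes that handle heme and iron showed no common direction. Neuroglobin (Ngb) differed by 0.063, with -0.051 for its second probe, and cytoglobin (Cygb) by 0.015, and myoglobin (Mb) did not pass the filter. Of 18 measured genes of heme and iron handling, 9 were higher and 9 lower, with 0 past the threshold, 1 higher and 0 lower at an unadjusted p under 0.05, and a median of 0.0060. Ceruloplasmin (Cp), a copper protein that oxidises iron, differed by 0.79 (limma adjusted p = 0.273), with every ischemia array above every control but only 2 of 4 controls well above background, and the heme oxygenase gene Hmox2 by 0.12 (limma adjusted p = 0.576).

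Markers of cells that come with blood, vessels or brain coverings were set beside the globins as sums of linear signal relative to the 75th percentile. Of 11 platelet markers 4 were measured, with sums of 1.63 to 1.75 in control and 1.40 to 2.01 in ischemia; Pf4 differed by 1.18 and Gp1bb by -0.23, and Gp1ba, Gp5, Gp6, Gp9 and Itga2b were well above background on 0 arrays. Of 12 neutrophil markers 7 were measured, with sums of 2.84 to 4.09 in control and 2.71 to 5.18 in ischemia; S100a8 (well above background on 2 of 4 control arrays) differed by 1.88, with every ischemia array above every control, and Mmp9 (on 2 of 4 ischemia arrays) by -1.54, and Mpo, Ltf, Ngp and Mmp8 were well above background on 0 arrays. S100a9, named after its values were seen and measured on all 8 arrays, differed by 1.47 (limma unadjusted p = 0.0183, adjusted p = 0.406), with overlap. Of the 7 neutrophil markers, 2 were higher and 2 lower at an unadjusted p under 0.05. Lymphocyte markers were measured in 5 of 9 cases, with sums of 8.50 to 9.24 and 7.58 to 9.03, and Cd3d, Cd3g and Ms4a1 were among those well above background on 0 arrays. The white cell and platelet sums thus overlapped between the groups. A single bright probe carried most of the platelet sum (Gp1bb) and, in control, of the neutrophil sum (Elane, named after its values were seen). The sums therefore say little of the other genes in these lists. For Gp1bb, every ischemia array lay below every control, which held for 4.05% of all tested probes.

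Endothelial markers (11 of 11 measured) summed to 43.0 to 46.6 in control and 39.5 to 48.2 in ischemia, and microglial or macrophage markers (10 of 10) to 23.4 to 27.2 and 26.2 to 27.4. Kdr and Cldn5, named after their values were seen, were the brightest endothelial probes (control means 4.34 and 4.04) and weigh most in that sum. Kdr differed by -0.31 and Ly6c1 by 0.84, both without overlap, and their second probes by -0.12 and 1.04. Of the 11 endothelial markers, 3 were higher and 1 lower at an unadjusted p under 0.05, with 0 past the adjusted threshold. The 3 include Slco1a4, which passed the filter only through the ischemia arrays. In 3 of the 10 microglial or macrophage markers every ischemia array lay above every control (2.18% of all tested probes): C1qa differed by 0.42, C1qc by 0.35 and Aif1, named after its values were seen, by 0.24. In mean, 6 of the 10 were higher and 4 lower, so the list had no common direction. At an unadjusted p under 0.05, 3 of the 10 were higher and 1 lower, and 0 passed the adjusted threshold. The lower one was P2ry12, also named after its values were seen, which differed by -0.30. Choroid plexus markers (6 of 10) summed to 3.20 to 3.58 in control and 3.25 to 118 in ischemia, the highest on ischemia 4, the array with the lowest globins. On that array the transthyretin gene Ttr stood at 6.76, against -4.31 to -1.90 on the other ischemia arrays. Meningeal markers (10 of 11) summed to 4.21 to 5.52 in control and 4.50 to 16.4 in ischemia, the highest on ischemia 1. The bright probe of Ptgds weighs heavily in that sum. It stood at 3.04 on ischemia 1 and at 3.48 on ischemia 4. On ischemia 2 and 3 it stood at -0.27 and -0.0069, and in control at -1.16 to -0.010. In mean, 8 of the 10 meningeal markers were higher and 2 lower, with 0 past the adjusted threshold. Cortical neuron markers (11 of 12) summed to 333 to 355 and 307 to 360 (control, then ischemia). The part of these cell types in the globin differences was not tested, and the median of the 6 members without ischemia 4 was -0.27.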

How the data were processed

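The values are the linear spot intensities that the authors deposited for each array, read with Agilent Feature Extraction 10.7.3.1 per the submitters' processing notes: the processed signal (background corrected by the software) and the mean and local background signals. The value table that the authors deposited holds a ratio. Its columns were checked to equal processed signal over a fixed number for each array, within 0.005%, with medians of 0.0836 to 0.1003. The check covered only spots with a ratio of 1 or more, 15455 to 15461 of the 59305 spots on each array that are not controls. The meaning of that number is unknown, and the table served as an alternative.

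Control spots and outlier spots were left out (26 probes dropped), spots of a probe averaged as log2, and log2 of the array's 75th percentile (306 to 393) subtracted. Between 47.6% and 51.7% of spots were well above background. Tests were limma 3.58.1 (lmFit, eBayes) in R 4.3.3 over 27131 probes, two-sided, with Benjamini-Hochberg adjustment. On simulated data for this comparison, 32 of 67 changes of 0.5 log2, 55 of 67 of 1 and 59 of 66 of 2 were recovered, with 13 false calls. The changed probes were picked at random from all tested ones, and probes varied independently. The members vary together, with pooled SDs of 0.33 to 0.40 against a median of 0.14 over all tested probes. These shares therefore do not apply to the members. The members and gene lists were chosen with earlier results of these data known. Named genes are all members, the 2 of each list with the smallest unadjusted p, and the 5 most alike; a few of the listed genes are counted but not reported by name here. Alternatives covered background correction, scaling, filters, probe choice, variance model, array weights, the replicate number, the value table, spot averaging and each array left out. The number of arrays limits the precision. Coordinates of probes are mm9, from the files; those of promoters are GRCm38.p6.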

Additional observations from a re-analysis of the deposited data

Results flagged for a closer look

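Among 68 sets of 4 arrays of one group (the tested members and the named genes), 2 held an array far from the other three, judged by its gap to the nearest array as a share of the group's range against Dixon's 95% critical value. Chance gives about 1 in 20. For the transcription factor gene Lmo2, control 1 stood high at 1.64, with the other controls at 1.58 to 1.59 (share 0.853). For the endothelial transporter gene Slco1a4, control 1 stood low at -4.58, with the other controls between -3.89 and -3.84 (share 0.923). Its probe was not well above background on any control array and was so on 4 ischemia arrays. It thus passed the filter only through the ischemia arrays, and its control values, control 1 included, are near background. For this reason no fold change and no p-value is given for it, and its place among the 3 higher endothelial markers above carries no weight.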

How the results depend on the processing

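For the later globins and Alas2, the sign of the difference and its side of the adjusted threshold were the same under all 20 alternatives, and 0 of the 6 tested members passed under any of them (smallest adjusted p 0.324, Hba-a2 with normexp, by limma). Where only the filters, probe choice, variance model, replicate block or spot averaging changed, the members' differences equalled those of the main analysis. Their sign could not change under those alternatives. Slc4a1 changed sign with no scaling (0.055), without ischemia replicate 3 (0.069) and without ischemia replicate 4 (0.065), and with each array left out in turn ranged from -0.24 to 0.069. With no scaling the median difference of all probes moved from -0.023 to 0.12, and that of the 6 members was -0.30. The number of probes past the threshold was 0 lower and 0 higher in the main analysis. It was 2 higher with median scaling, 2 higher with no scaling, 19 lower and 2 higher with a trended and robust variance, 1 lower with 1 probe per gene name and 1 lower in the authors' value table. With each array left out in turn it ranged from 0 to 1 higher (1 without control replicate 4) and was 0 lower. The cause of these changes was not tested. With the replicate number as a block, 0 probes passed, the median of the 6 members was -0.43, and 2 of the 6 in place of 3 had an unadjusted p under 0.05 by limma. The one lost was Hba-a1 (difference -0.48, limma adjusted p = 0.483). Same-numbered arrays of the 2 groups correlated between -0.07 and 0.36 in their deviations, and 4 of 8 arrays, those numbered 3 and 4, correlated best with their own number. Not every pair exceeded 0.1, so the numbers were not used to pair arrays, and whether they mark litters is not known. The planned ratio of embryonic to later globins gave no value, since 0 embryonic probes passed the filter. It was also not run without the filter, where the values would be those at background. Signal over background limits what can be said of Slc4a1, Ahsp and the embryonic globins.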
